A study of Mus musculus with 2 samples.

Results

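The genes described here are 9 genes of plasma cells and of the secretory route that plasma cells use, namely Jchain, Mzb1, Xbp1, Derl3, Herpud1, Prdm1, Eaf2, Sdc1 and Tnfrsf17. They were chosen by symbol from the gene list of a single-cell RNA data set, and all 9 were found among its 27933 symbols. The data come from immune cells of lymph nodes of mice with a transplanted heart, in 2 groups with 1 library each. In the allogeneic group, C57BL/6 hearts had been placed in Balb/c recipients, so donor and recipient differed in strain. In the syngeneic group, the donors and the recipients were both Balb/c. The mice were 6 to 8 weeks old in both groups. No drug or altered allele is named for either group, and neither the time after transplantation, the lymph node taken nor the number of mice behind a library is stated. RNA was counted as unique molecular identifiers (UMIs, tags that mark single captured RNA molecules) per cell barcode.

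Plasma cells are the end stage of the B cell line and secrete antibody. Xbp1 is made active when the endoplasmic reticulum (ER) is loaded with unfolded protein, and it enlarges the ER and its folding and export machinery. Prdm1 encodes Blimp-1, a repressor that ends the B cell programme, and in T cells the same factor is known from effector and regulatory cells. Jchain encodes the joining chain that links IgM and IgA molecules into polymers. Lymph nodes usually hold few plasma cells, and germinal centres, where B cells mutate and select their antibody genes, are one of the sources of plasma cells.

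The barcode list of the allogeneic library had 3500 entries and 8415043 UMIs, against 7967 entries and 46486632 UMIs in the syngeneic one. Barcodes were kept if they showed 200 genes or more and no more than 10% mitochondrial UMIs. These were 2106 allogeneic barcodes (60.2%) with a median of 3147 UMIs and 7957 syngeneic barcodes (99.9%) with a median of 4917 UMIs. The lowest total of a listed barcode was 150 UMIs in the allogeneic library, against 3447 UMIs in the syngeneic library, so the lists start at different depths. Haemoglobin took 9.11% of kept UMIs in the allogeneic library, against 0.114% in the syngeneic library. The barcode lists shared 66 sequences, of which 26 were kept in both libraries. With 1 library per group, no test of the condition is possible, and group, depth and library preparation cannot be told apart. All levels below are UMIs of a gene per 1000000 UMIs of the same barcodes (CPM), and all intervals are exact 95% intervals that cover counting error only. PCR copies are removed by the UMI, but cells of 1 library are not replicates.

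Each kept barcode was assigned by marker genes that exclude the 9 genes. T markers named 1366 allogeneic and 5857 syngeneic barcodes, and B markers without germinal centre markers named 335 allogeneic and 958 syngeneic barcodes. Germinal centre B barcodes numbered 10 in the allogeneic library (0.475% of kept barcodes, interval 0.228% to 0.871%) and 162 in the syngeneic library (2.04%, interval 1.74% to 2.37%). Their median totals were 4375 UMIs in the allogeneic library, against 9246 UMIs in the syngeneic library, and since the class needs at least 2 detected markers, depth can set part of this share. Plasmacytoid dendritic cells (pDCs), which share part of the secretory programme of plasma cells, were named for 0 allogeneic barcodes. The exact interval of this share runs up to 0.175%. In the syngeneic library 64 barcodes (0.804%) were named pDC. Barcodes with markers of several lineages, called mixed here, numbered 44 in the allogeneic library, against 857 in the syngeneic library, of which 25 allogeneic and 770 syngeneic barcodes carried T and B markers together. The immunoglobulin constant genes, which would mark plasma cells most directly, were not analysed here.

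Jchain RNA was held by very few barcodes. The kept allogeneic barcodes held 124 Jchain UMIs (16.2 CPM, interval 13.4 to 19.3) and the kept syngeneic barcodes held 4481 (96.5 CPM, interval 93.7 to 99.4). Jchain was thus lower in the allogeneic library, with a log2 ratio of -2.58 (interval -2.85 to -2.32). A single syngeneic barcode carried 2367 of the 4481 UMIs (52.8%), and a single allogeneic barcode carried 60 of the 124 (48.4%). Without the syngeneic barcode the log2 ratio was -1.50, without the allogeneic one it was -3.53, and without both it was -2.45. Barcodes with at least 10 Jchain UMIs numbered 3 in the allogeneic library, against 54 in the syngeneic library. Among the other 7 genes with UMIs in both libraries, no barcode held more than 17.6% of a library's UMIs of a gene (Derl3, allogeneic). For Mzb1, 60 allogeneic and 280 syngeneic barcodes were needed to reach 50% of its UMIs, and for Xbp1 68 allogeneic and 447 syngeneic barcodes.

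The allogeneic barcode with most Jchain held 1704 UMIs, of which Jchain made up 3.52% (interval 2.7% to 4.51%). It carried 9 Mzb1 UMIs, 5 Eaf2 UMIs and 2 Herpud1 UMIs, and Xbp1, Derl3, Prdm1, Sdc1 and Tnfrsf17 were at 0. It was gated mixed, with 3 T marker UMIs and 5 B marker UMIs. Genes for ER folding and export, a list of 49 chaperones, translocon subunits and glycosylation and quality-control factors, made up 2.99% of its UMIs, against 0.467% over the allogeneic B barcodes. Slpi, which encodes a secreted protease inhibitor, reached 84 UMIs in this barcode.

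In the syngeneic library, the barcode with most Jchain held 10451 UMIs, and Jchain made up 22.6% of them (interval 21.8% to 23.5%). It carried 52 Xbp1, 41 Mzb1, 7 Derl3, 7 Herpud1, 4 Sdc1 and 4 Tnfrsf17 UMIs. These 4 were all the Tnfrsf17 UMIs of the kept syngeneic barcodes. Tnfrsf17 encodes BCMA, a survival receptor of plasma cells, and Sdc1 encodes syndecan-1, the surface proteoglycan used to sort them. Prdm1 had 0 UMIs there and Eaf2 had 1. ER folding and export genes made up 4.21% of its UMIs, with 46 of the 49 detected, against 0.632% over the syngeneic B barcodes. Cd79a had 10 UMIs, while Ms4a1 and Pax5, which mature B cells express, were at 0. It also held 10 T marker UMIs and 2 pDC marker UMIs and was therefore gated mixed. Whether it held 1 cell or more than 1 was not tested.

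The next syngeneic barcodes by Jchain carried more B cell RNA. The second, a germinal centre B barcode of 22435 UMIs, held 250 Jchain, 75 Mzb1, 35 Xbp1, 19 Eaf2 and 4 Prdm1 UMIs, and 2.48% of its UMIs came from ER folding and export genes. The fourth, a B barcode of 6793 UMIs, held 52 Jchain, 41 Mzb1, 7 Xbp1, 5 Derl3 and 4 Prdm1 UMIs, with 2.22% from those ER genes. Between them stood a germinal centre B barcode with 116 Jchain UMIs, in which the ER share was 0.896% and Xbp1 had 2 UMIs. Among all B and germinal centre B barcodes, Prdm1 was detected in 1 of 345 allogeneic barcodes and 7 of 1120 syngeneic barcodes. Of those 7 syngeneic barcodes, 5 had at least 5 Jchain UMIs, and the 1 allogeneic barcode had none.

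**Figure D1:**
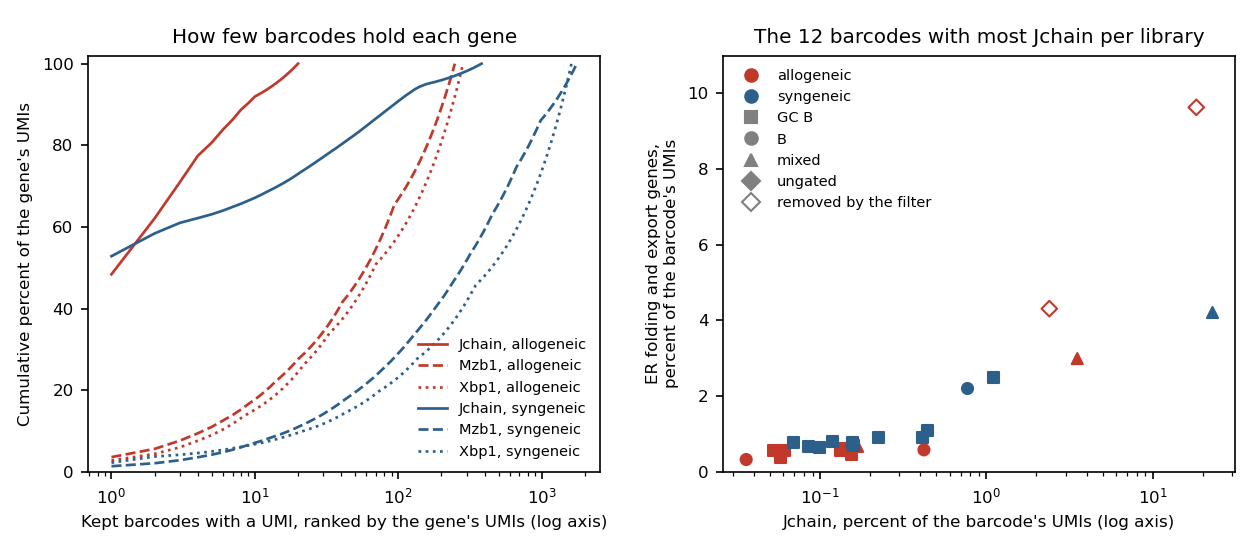
Left: cumulative percent of the UMIs of Jchain, Mzb1 and Xbp1 against kept barcodes ranked by that gene's UMIs (log axis), for the allogeneic (red) and syngeneic (blue) libraries. Right: the 12 barcodes with most Jchain per library, by Jchain share (log axis) and by share of ER folding and export genes, both in percent of the barcode's UMIs, with the gate as marker shape and open symbols for barcodes that the cell filter removed. The Jchain curves start at 48.4% (allogeneic) and 52.8% (syngeneic) with the first barcode, and the syngeneic barcode at 22.6% Jchain has 4.21% ER genes.

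Other genes also stood apart in the barcodes that held most Jchain. By ratio of level to the other kept barcodes of the same library, and with at least 20 UMIs there, the leading genes of the syngeneic barcode were Txndc5 (83.5-fold), Prdx4 (72.2-fold) and Edem2 (48-fold), an ER oxidoreductase, an ER peroxiredoxin and a factor of ER-associated degradation. The Ly6 surface antigens Ly6c1, Ly6c2 and Ly6a came next, with 16.3-fold to 26.5-fold. Sec11c, Serp1, Hsp90b1 and Spcs2, of the signal peptidase, the translocon and ER chaperoning, completed the 10 with 8.73-fold to 15.5-fold. In the allogeneic library, 2 barcodes were needed for 50% of Jchain, the mixed one above and a germinal centre B barcode of 12303 UMIs with 17 Jchain UMIs (0.138%). Their joint leading genes were Slpi (77.8-fold) and Txndc5 (32.7-fold), followed by the MHC class II genes H2-DMb2, H2-Eb1, H2-Ab1, H2-Aa and Cd74 (9.08-fold to 15.3-fold), the B cell receptor genes Cd79b and Cd79a (7.6-fold and 5.48-fold) and Ltb (4.51-fold). The germinal centre B barcode supplied 331 of the 353 Cd74 UMIs and 21 of the 24 Cd79a UMIs, while the mixed one supplied 84 of the 90 Slpi UMIs.

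In the allogeneic library the filter on cells took a larger share of Jchain than of the other 7 genes with UMIs there. The removed barcodes held 52 Jchain UMIs, 29.5% of all its Jchain, while they held 3.67% of Mzb1, 6.26% of Xbp1 and 10.2% of Prdm1. Over all genes, the kept barcodes held 7677636 of the 8415043 UMIs of that library. Of the 52 removed Jchain UMIs, 40 lay in 1 barcode with 218 UMIs and 148 genes, on which the larger share rests. Jchain made up 18.3% of that barcode (interval 13.4% to 24.1%), and ER folding and export genes made up 9.63%. The rest of the allogeneic barcodes with under 200 genes held 11 Jchain UMIs (20.2 CPM). In the syngeneic library the removed barcodes held 1 Jchain UMI.

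Germinal centre B barcodes carried most of the remaining Jchain. Their level was 639.1 CPM in the allogeneic library (42 UMIs, interval 460.6 to 863.8) and 910.6 CPM in the syngeneic library (1682 UMIs, interval 867.6 to 955.2). Per barcode, Jchain ranged over 0 to 17 UMIs in the 10 allogeneic barcodes (median 3, 4 at 0) and over 0 to 250 UMIs in the 162 syngeneic barcodes (median 6, 30 at 0). The ranges overlap, and the log2 ratio was -0.51 (interval -0.99 to -0.07). In both libraries the level stood far above that of the other B barcodes, 51.9-fold in the allogeneic library, against 51-fold in the syngeneic library. Without the 1 such B barcode with most Jchain in each library, the folds were 259 in the allogeneic library, against 134 in the syngeneic library. All germinal centre B barcodes were kept there, and the allogeneic fold rests on 2 Jchain UMIs in the other B barcodes. No difference between the libraries is read from these folds.

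B barcodes without germinal centre markers had little Jchain, 12.3 CPM in the allogeneic library, against 17.8 CPM in the syngeneic library. Most of it again lay in 1 barcode each. Without that barcode the level was 2.47 CPM in the allogeneic library (interval 0.299 to 8.92) and 6.81 CPM in the syngeneic library (interval 4.66 to 9.61). T barcodes, which should lack Jchain, had 1.72 CPM (interval 0.787 to 3.27) in the allogeneic library, against 4.65 CPM (interval 3.95 to 5.45) in the syngeneic library. The median totals of T barcodes were 3499.5 UMIs (allogeneic) and 4863 UMIs (syngeneic). The level in most B barcodes was therefore close to the background, and no difference between the libraries is read from it. B markers summed to 68.1 CPM in allogeneic T barcodes and 165.9 CPM in syngeneic T barcodes, so the background of B cell RNA was higher in the syngeneic library.

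Eaf2, a transcription elongation factor known from germinal centre B cells, had the pattern most like that of Jchain. Over the 12 groups of library and gated type with at least 20 barcodes, its Pearson correlation with Jchain was 0.856, the highest of 10283 genes. Rgs13 (0.814), itself one of the germinal centre markers used for gating, Kifc5b (0.812), Ccne2 (0.799) and Cdc20 (0.795) followed. These groups share libraries and depth, so the values are a description. Eaf2 stood at 347 CPM in syngeneic germinal centre B barcodes and at 18.9 CPM or less in every other group used. The 10 allogeneic germinal centre B barcodes were too few to form a group. In the mixed groups 1 barcode each held most Jchain, 60 of 62 UMIs (allogeneic) and 2367 of 2558 UMIs (syngeneic). Derl3 reached 0.631, Mzb1 0.541, Prdm1 0.28, Herpud1 0.203, Xbp1 0.183 and Sdc1 -0.304. Germinal centre B barcodes had 136.9 CPM of Eaf2 in the allogeneic library, against 347 CPM in the syngeneic library, a log2 ratio of -1.34 (interval -2.48 to -0.41) that rests on 9 allogeneic UMIs. After thinning to 1000 UMIs, Eaf2 was seen in 30% of the 10 allogeneic barcodes (interval 6.67% to 65.2%) and 19.8% of the syngeneic ones (interval 13.9% to 26.7%). These are shares of barcodes and not levels, and with 10 allogeneic barcodes they cannot show whether Eaf2 differs at equal depth. In the other B barcodes Eaf2 was at 17.2 CPM in the allogeneic library, against 8.5 CPM in the syngeneic library, and in T barcodes at 0.765 CPM (allogeneic) and 0.997 CPM (syngeneic). Eaf2 was 7.94-fold higher in germinal centre B than in other B barcodes of the allogeneic library and 40.8-fold higher in the syngeneic library.

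Mzb1, an ER co-chaperone that assists antibody assembly in marginal zone and other B cells and in pDCs, was spread over the B line. Germinal centre B barcodes had 441.3 CPM in the allogeneic library (29 UMIs) and 849.4 CPM in the syngeneic library (1569 UMIs), with a log2 ratio of -0.94 (interval -1.53 to -0.42). After thinning to 1000 UMIs, Mzb1 was seen in 50% of these allogeneic barcodes (interval 18.7% to 81.3%) and 56.2% of the syngeneic ones (interval 48.2% to 63.9%). A difference was thus not detectable at equal depth, with 10 allogeneic barcodes. Other B barcodes had 448.4 CPM in the allogeneic library, against 499.7 CPM in the syngeneic library. When each barcode was thinned to 1000 UMIs, Mzb1 was seen in 34.5% of allogeneic B barcodes (interval 29.2% to 40.1%) and 36.1% of syngeneic B barcodes (interval 33.1% to 39.2%), intervals that overlap. Before thinning, the share of allogeneic barcodes with Mzb1 was 58.8% for B and 2.12% for T. For syngeneic barcodes it was 82.2% for B and 6.44% for T. Of all kept Mzb1 UMIs, B barcodes held 81.6% in the allogeneic library, against 42.3% in the syngeneic library, where germinal centre B barcodes held a further 28.2%, mixed barcodes 17.8% and pDC barcodes 4.55%.

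Of the 6 genes with at least 20 UMIs among germinal centre B barcodes, 1 was 2-fold higher in the allogeneic library and 2 were 2-fold lower. Among all genes tested there, 10.5% were 2-fold higher and 11.5% were 2-fold lower. The higher one was Herpud1, at 426 CPM in the allogeneic library, against 198.1 CPM in the syngeneic library (log2 ratio 1.10, interval 0.49 to 1.66). After thinning, Herpud1 was seen in 20% of allogeneic barcodes (interval 2.52% to 55.6%) and 19.1% of syngeneic ones (interval 13.4% to 26%), so a difference was not detectable at equal depth. The lower ones were Eaf2 and Xbp1. Xbp1 had 0 UMIs in the 10 allogeneic barcodes and 191 UMIs (103.4 CPM) in the 162 syngeneic barcodes, and was counted as 2-fold lower against a floor of 3 UMIs over the allogeneic group. The exact interval of its log2 ratio ends at -0.87, short of 2-fold, and without the syngeneic barcode of this class with most Jchain the syngeneic level was 85.5 CPM. After thinning, Xbp1 was seen in 0% of allogeneic barcodes (interval up to 30.8%) and 5.56% of syngeneic ones. Derl3, at 0 allogeneic and 34 syngeneic UMIs, gave no direction at this depth.

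**Figure D2:**
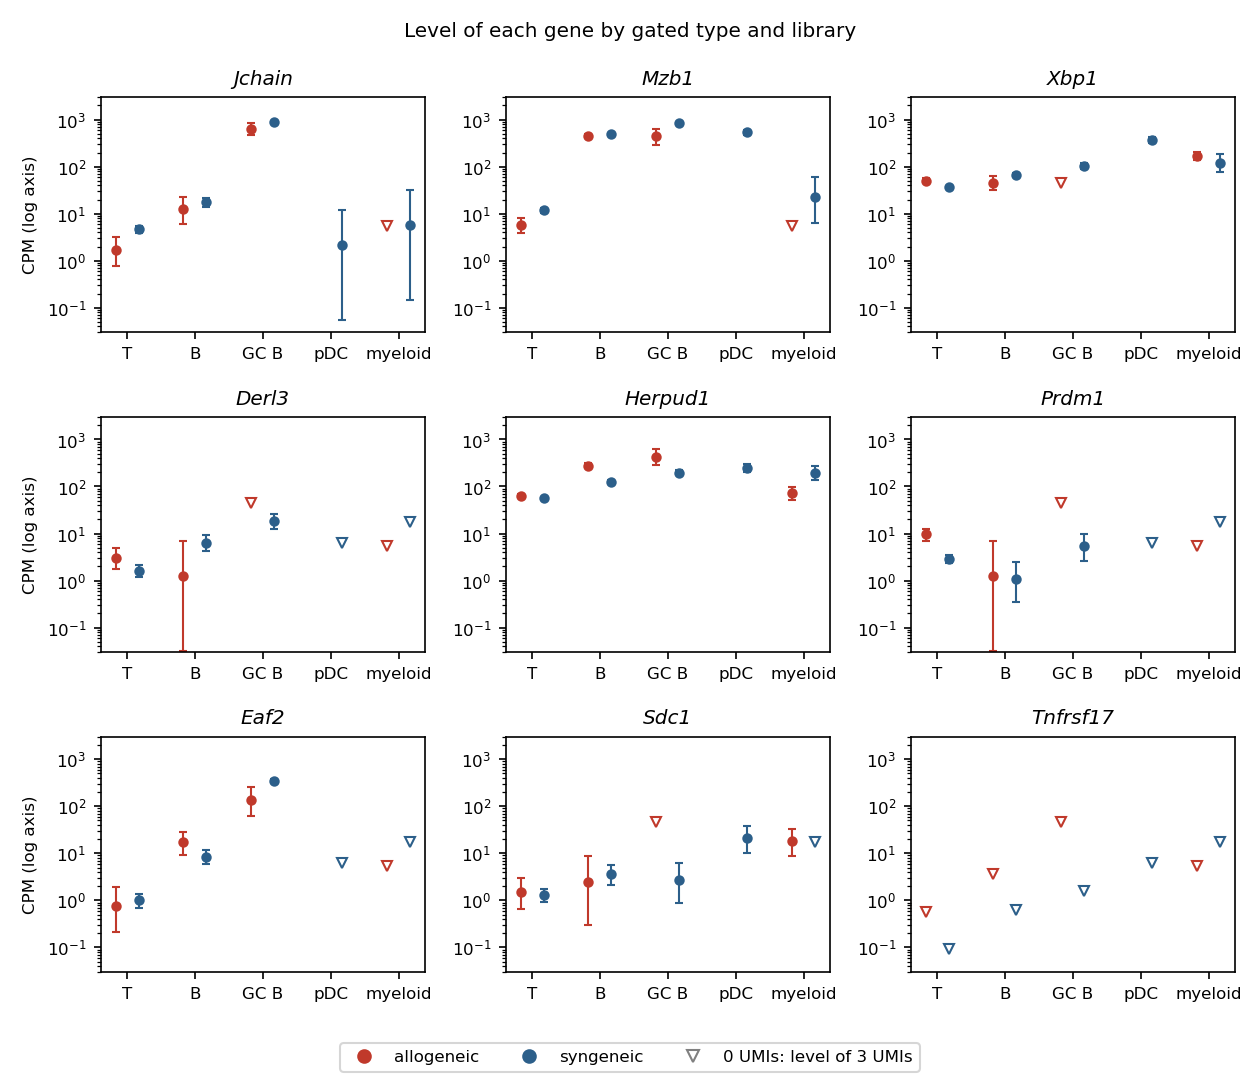
Level of each gene in CPM (log axis) by gated type, allogeneic in red to the left and syngeneic in blue to the right, with exact 95% Poisson intervals. Open triangles mark 0 UMIs and stand at the level that 3 UMIs would give. No allogeneic barcode was gated pDC. Jchain and Eaf2 peak in germinal centre B barcodes, Xbp1 in syngeneic pDC barcodes at 373.7 CPM, and Mzb1 is high in B, germinal centre B and pDC barcodes.

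In pDC barcodes, named in the syngeneic library alone, the secretory genes were high and Jchain was not. Xbp1 stood at 373.7 CPM, 5.62-fold above syngeneic B barcodes and 9.95-fold above T barcodes, and was detected in 81.2% of the pDC barcodes. Mzb1 stood at 537.2 CPM, close to the 499.7 CPM of B barcodes, Herpud1 at 246.3 CPM and Sdc1 at 21.2 CPM. ER folding and export genes made up 1.31% of pDC UMIs, against 0.632% in B, 0.713% in germinal centre B and 0.59% in T barcodes of the same library. Jchain had 1 UMI in these 64 barcodes (2.12 CPM, interval 0.0538 to 11.8), which is 0.0223% of the syngeneic Jchain (interval 0.000565% to 0.124%). The interval of this level includes the 4.65 CPM of syngeneic T barcodes, so it is not told apart from the background. Derl3, Prdm1, Eaf2 and Tnfrsf17 were at 0, where 3 UMIs would be 6.37 CPM. The highest Xbp1 levels outside pDCs were those of myeloid barcodes, with 171.3 CPM in 77 allogeneic barcodes and 122 CPM in 18 syngeneic barcodes.

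Among B barcodes outside the germinal centre class, Herpud1 was higher in the allogeneic library. Herpud1, which encodes an ER membrane protein of the degradation complex and is induced by ER stress, had 225 UMIs (277.2 CPM) in the allogeneic library, against 583 UMIs (123.9 CPM) in the syngeneic library. The log2 ratio was 1.16 (interval 0.93 to 1.39). After thinning to 1000 UMIs it was detected in 28.7% of allogeneic B barcodes (interval 23.7% to 34.1%) and 12.4% of syngeneic ones (interval 10.4% to 14.7%), intervals that do not overlap. The shares before thinning were 45.4% (allogeneic) and 42.3% (syngeneic), and among T barcodes 19.9% (allogeneic) and 27.5% (syngeneic). In T barcodes Herpud1 was at 63.7 CPM in the allogeneic library, against 58.3 CPM in the syngeneic library, with an interval of the log2 ratio (-0.05 to 0.30) that includes 0.

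Xbp1 was lower in the allogeneic library among these B barcodes. It had 37 UMIs (45.6 CPM) in the allogeneic library, against 313 UMIs (66.5 CPM) in the syngeneic library, a log2 ratio of -0.54 (interval -1.08 to -0.05). After thinning it was detected in 4.19% of allogeneic B barcodes (interval 2.25% to 7.06%) and 7.83% of syngeneic ones (interval 6.21% to 9.71%), intervals that overlap. With only barcodes at or above the lowest syngeneic total, 33 allogeneic B barcodes were left. The Xbp1 ratio then rested on 7 allogeneic UMIs, and its interval (-1.94 to 0.45) includes 0. Derl3, an Xbp1-dependent factor that passes misfolded proteins out of the ER, had 1 UMI (1.23 CPM) in the allogeneic library, against 30 UMIs (6.37 CPM) in the syngeneic library, and its interval (-7.72 to 0.22) includes 0. Of the 6 genes with at least 20 UMIs among B barcodes, 2 were 2-fold higher in the allogeneic library, Herpud1 and Eaf2, where 10.3% of all genes tested were. With only barcodes at or above the lowest syngeneic total neither reached 2-fold. The log2 ratios were 0.68 for Herpud1 (32 allogeneic UMIs, interval 0.12 to 1.20) and 0.55 for Eaf2 (2 allogeneic UMIs, interval -2.55 to 2.50). With so few UMIs, the Eaf2 value cannot show whether the libraries differ at matched totals. The Eaf2 ratio of 1.02 was also under 2-fold with median-of-ratios scaling (0.90) and after thinning (0.22). Derl3 alone was 2-fold lower, where 9.16% of all genes tested were. At matched totals its ratio was -0.04, on 1 allogeneic UMI (interval -5.39 to 2.55), so no direction is read from it.

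The promoters of Derl3 and Herpud1 are shown because both carry a sequence to which factors of the ER stress response are known to bind. The sequences are from RefSeq (build GRCm38.p6) and cover the 250 bases before the start of each gene, which 8 of the 9 genes have in that table. Capitals mark the motif. Derl3 (chr10:75893148-75893397, plus strand) carries the ER stress response element, CCAAT and CCACG with 9 bases between, on the opposite strand, 138 to 156 bases before the start. Herpud1 (chr8:94386179-94386428, plus strand) carries the related element, ATTGG and CCACG with 1 base between, on its own strand, 42 to 52 bases before the start.
Derl3: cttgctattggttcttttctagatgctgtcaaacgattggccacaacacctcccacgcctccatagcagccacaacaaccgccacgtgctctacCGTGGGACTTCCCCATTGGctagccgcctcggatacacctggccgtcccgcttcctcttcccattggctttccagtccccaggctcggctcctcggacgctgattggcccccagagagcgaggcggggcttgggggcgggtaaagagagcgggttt
Herpud1: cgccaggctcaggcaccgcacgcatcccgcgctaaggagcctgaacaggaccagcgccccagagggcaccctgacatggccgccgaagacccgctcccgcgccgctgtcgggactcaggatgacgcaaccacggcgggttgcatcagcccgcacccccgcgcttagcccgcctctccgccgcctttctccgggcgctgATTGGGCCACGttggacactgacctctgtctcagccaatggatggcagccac

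Both strands were searched. The first element was found in 0.113% and the second in 0.0304% of 32851 promoters of the same length, and a match describes the letters only. Of the 36 ER folding and export genes with a promoter in the table, 8 carried the first element, namely Calr, Canx, Creld2, Dnajc3, Hsp90b1, Hspa5, Pdia6 and Syvn1. Among B barcodes 6 of these 8 were lower in the allogeneic library by over 0.1 on the log2 scale, 4 of them by 2-fold or more, and 1 was higher. Of all 49 ER folding and export genes 10 were 2-fold lower there, and of all genes tested 9.16%. Calr had 113.3 CPM in the allogeneic library, against 382.8 CPM in the syngeneic library, and Hsp90b1 had 102.2 CPM (allogeneic) and 268.5 CPM (syngeneic). Dnajc3 was the higher one, with 61.6 CPM in the allogeneic library, against 52.5 CPM in the syngeneic library. These genes were named for the motif after their values had been seen.

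Wider lists were counted in the same B barcodes. Of the 49 ER folding and export genes, 16 were higher and 33 lower in the allogeneic library, none 2-fold higher and 10 2-fold lower, where 10.3% of all genes tested were 2-fold higher and 9.16% 2-fold lower. The median log2 ratio was -0.20, beside 0.03 over all genes tested. The 4 most abundant over all kept barcodes were Sec61g, a translocon subunit, with 407.7 CPM in B barcodes of the allogeneic library, against 508.8 CPM in the syngeneic library, and Sec61b, another subunit, with 167.5 CPM (allogeneic) and 341.4 CPM (syngeneic). Ppib, a folding enzyme, had 263.6 CPM (allogeneic) and 306.8 CPM (syngeneic), and Hspa5, the chaperone BiP, had 251.3 CPM (allogeneic) and 401.3 CPM (syngeneic). Of the 8 stress sensor and integrated stress response genes with at least 20 UMIs, 6 were higher and 2 lower, with a median of 0.32. The 2 that were 2-fold higher, beside 10.3% of all genes tested, were Eif2ak3, which encodes the ER stress sensor PERK (45.6 CPM in the allogeneic library, against 14.7 CPM in the syngeneic library), and Ppp1r15a, which encodes the phosphatase subunit that ends that response (33.3 CPM allogeneic and 15.1 CPM syngeneic). Atf4 and Ddit3, transcription factors of the same branch, had log2 ratios of 0.22 and 0.20, and Atf6b and Ppp1r15b ratios of -0.56 and -0.06. The intervals of these 4 ratios include 0.

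Of 9 other plasma cell genes with at least 20 UMIs in B barcodes, 5 were higher and 4 lower in the allogeneic library. Their median log2 ratio was 0.21, beside 0.03 over all genes tested. Of these, 1 was 2-fold higher and 1 was 2-fold lower, where 10.3% of all genes tested were 2-fold higher and 9.16% 2-fold lower. Pou2af1, a coactivator of immunoglobulin genes, had 250.1 CPM in the allogeneic library, against 138.7 CPM in the syngeneic library. Tnfrsf13b, the receptor TACI, had 76.4 CPM in the allogeneic library, against 229.7 CPM in the syngeneic library. Pim2, a survival kinase, had 34.5 CPM (allogeneic) and 14.7 CPM (syngeneic), and Itm2c had 23.4 CPM (allogeneic) and 19.5 CPM (syngeneic). Of 13 B cell identity genes, 11 were lower in the allogeneic B barcodes, with a median of -0.62 beside 0.03 over all genes tested. Of the 13, 3 were 2-fold lower and none 2-fold higher, beside the same shares of all genes tested. Among them Ms4a1 had 563 CPM in the allogeneic library, against 1274 CPM in the syngeneic library, while Ebf1 was higher, at 1638 CPM (allogeneic) and 1152 CPM (syngeneic). Both are also gating markers. Id3 and Tnfrsf13c, the next most abundant of the list over all kept barcodes, had log2 ratios of -1.21 and -0.37. The 13 ratios ranged over -3.25 to 0.51. The B barcodes had median totals of 2284 UMIs in the allogeneic library, against 4177.5 UMIs in the syngeneic library. Thinning and matched totals were run only for the genes described here, not for these lists. The part of this depth gap in the list results was not tested.

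**Figure D3:**
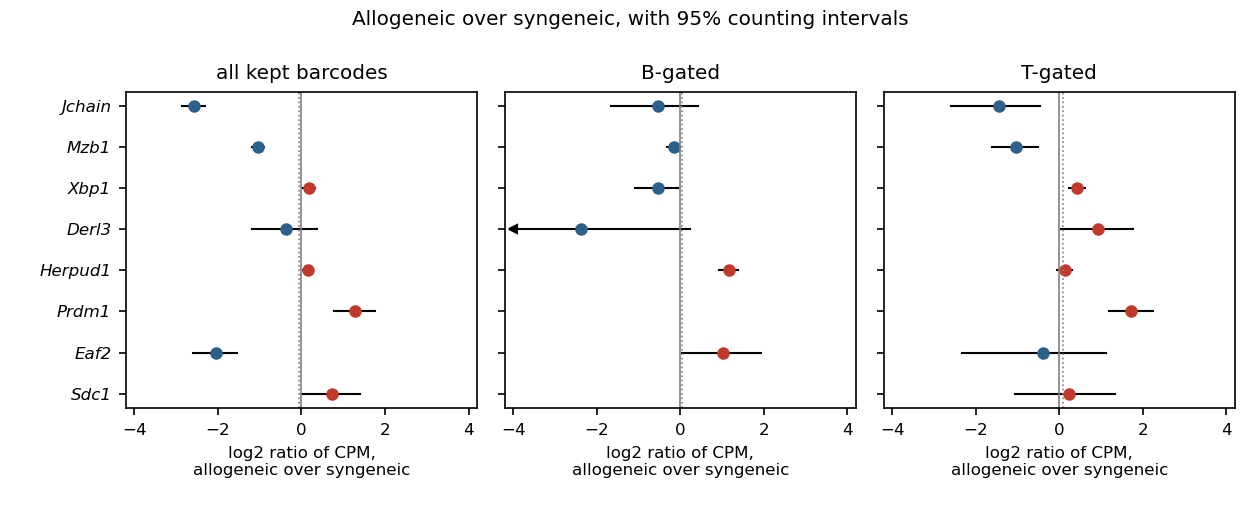
Log2 ratio of CPM, allogeneic over syngeneic, for genes that reached 20 UMIs in the sum of both libraries, among all kept, B-gated and T-gated barcodes, with exact 95% counting intervals. Red points are higher and blue points lower in the allogeneic library, the dotted line is the median of all genes tested, and the arrow marks an interval that runs past -4. Herpud1 is at 1.16 among B barcodes and Prdm1 at 1.72 among T barcodes.

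T barcodes held 50 of the 53 kept Prdm1 UMIs of the allogeneic library (94.3%) and 96 of the 132 of the syngeneic library (72.7%). Of all kept UMIs they held 68.1% in the allogeneic library, against 71.2% in the syngeneic library, and the syngeneic value lies within the interval of the syngeneic Prdm1 share (64.3% to 80.1%). The Prdm1 level of T barcodes was 9.56 CPM in the allogeneic library, against 2.9 CPM in the syngeneic library, a log2 ratio of 1.72 (interval 1.20 to 2.23). At an equal depth of 1000 UMIs, Prdm1 was detected in 0.915% of allogeneic T barcodes (interval 0.474% to 1.59%) and 0.324% of syngeneic T barcodes (interval 0.195% to 0.506%). These shares rest on 12 allogeneic and 19 syngeneic barcodes, and their intervals overlap slightly. The shares before thinning were 3.37% (allogeneic) and 1.47% (syngeneic). Prdm1 was the 1 gene of the 8 with at least 20 UMIs that was 2-fold higher among T barcodes, where 9.45% of all genes tested were. Jchain and Mzb1 were 2-fold lower there, where 5.71% of all genes tested were. The Jchain level of T barcodes is the one taken as background above. Mzb1 was at 5.73 CPM (allogeneic) and 11.7 CPM (syngeneic) in T barcodes, and whether this is background was not tested.

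Regulatory T cells are known to express Prdm1, so T barcodes were split by detection of Foxp3, their defining factor, a split added after the data had been seen. A Foxp3 UMI was seen in 130 of 1366 allogeneic T barcodes (9.52%, interval 8.01% to 11.2%) and 272 of 5857 syngeneic T barcodes (4.64%, interval 4.12% to 5.21%). With Foxp3, Prdm1 was at 24 CPM (14 UMIs) in the allogeneic library, against 13.1 CPM (28 UMIs) in the syngeneic library. Without Foxp3, it was at 7.75 CPM (36 UMIs) in the allogeneic library, against 2.2 CPM (68 UMIs) in the syngeneic library. The log2 ratio was 0.88 with Foxp3 (interval -0.16 to 1.85, which includes 0) and 1.82 without Foxp3 (interval 1.19 to 2.42). Foxp3 can be missed in a shallow barcode, and T barcodes had median totals of 3499.5 UMIs (allogeneic) and 4863 UMIs (syngeneic). How many regulatory cells lie in the class without Foxp3 was not tested. The split therefore does not place the Prdm1 difference outside regulatory T cells. Among barcodes without Foxp3, Prdm1 was again the 1 gene past 2-fold upwards, where 9.23% of all genes tested were, and Jchain and Mzb1 were 2-fold lower, where 6.47% were. With Foxp3, none of the 4 genes with at least 20 UMIs reached 2-fold in either direction, where 8.88% of all genes tested were 2-fold higher and 5.88% were 2-fold lower.

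Xbp1 was also higher in allogeneic T barcodes, at 50.7 CPM (265 UMIs) against 37.6 CPM (1243 UMIs) in syngeneic ones, with a log2 ratio of 0.43 (interval 0.23 to 0.62). Detection after thinning to 1000 UMIs was 5.42% in the allogeneic library (interval 4.25% to 6.78%) and 3.38% in the syngeneic library (interval 2.93% to 3.88%). With Foxp3 the level was 108 CPM in the allogeneic library, against 68.6 CPM in the syngeneic library, and without Foxp3 it was 43.5 CPM (allogeneic) and 35.4 CPM (syngeneic). In both libraries Xbp1 was higher with Foxp3 than without, 2.49-fold in the allogeneic library, against 1.94-fold in the syngeneic library. Derl3 had 16 UMIs (3.06 CPM) in allogeneic T barcodes and 53 UMIs (1.6 CPM) in syngeneic ones, with a log2 ratio of 0.93 (interval 0.03 to 1.76). After thinning, Derl3 was seen in only 2 allogeneic T barcodes (interval 0.0185% to 0.55%) and 4 syngeneic ones (interval 0.0186% to 0.175%), and the intervals overlap. The ER folding and export genes showed 19 higher and 30 lower in T barcodes, with a median of -0.04 beside 0.09 over all genes tested. With median-of-ratios scaling, which shifted all T ratios by -0.15, 12 were higher and 37 lower.

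**Figure D4:**
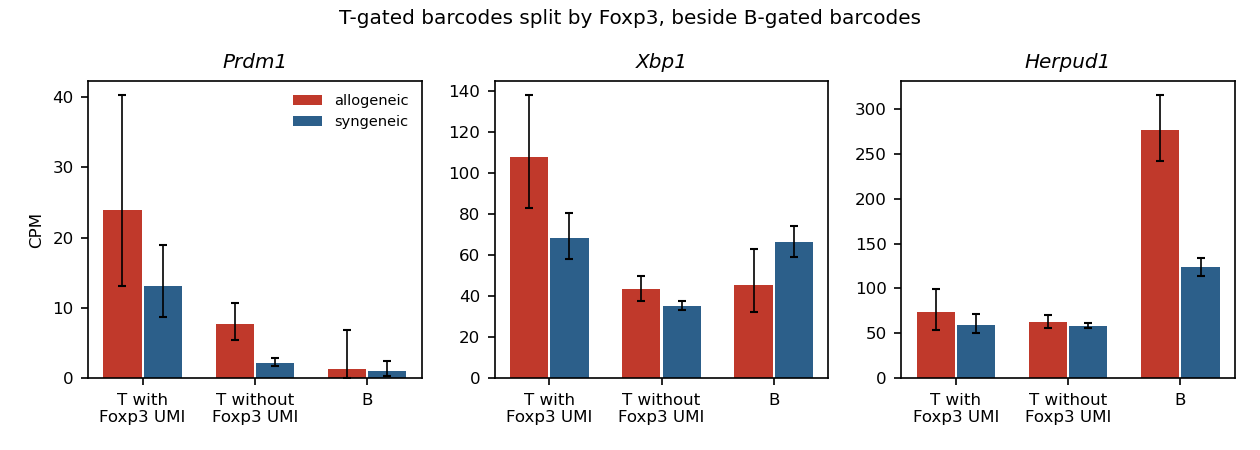
Level of Prdm1, Xbp1 and Herpud1 in CPM in T barcodes with and without a Foxp3 UMI and in B barcodes, allogeneic (red, left) and syngeneic (blue, right), with exact 95% Poisson intervals as error bars. With Foxp3, Prdm1 is at 24 CPM (allogeneic) and 13.1 CPM (syngeneic), and in B barcodes Herpud1 is at 277.2 CPM (allogeneic) and 123.9 CPM (syngeneic).

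Sdc1 RNA was sparse and lay mostly outside the B line. The kept barcodes held 24 Sdc1 UMIs (3.13 CPM) in the allogeneic library, against 88 (1.9 CPM) in the syngeneic library. In the allogeneic library 10 of the 24 lay in myeloid barcodes (18.2 CPM), where the syngeneic library had 0 in 18 barcodes with an exact upper limit of 21.4 CPM, so no difference is read. B barcodes held 2 allogeneic and 17 syngeneic UMIs. Tnfrsf17 had 0 UMIs in the allogeneic library, where 3 UMIs would be 0.391 CPM, so a level like the syngeneic one (0.0861 CPM) was not detectable.

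Summed over all kept barcodes, the genes had both directions. Of the 8 with at least 20 UMIs, 4 were higher and 4 lower in the allogeneic library, with a median log2 ratio of -0.10 beside -0.05 over all genes tested. Prdm1 alone was 2-fold higher (6.9 CPM in the allogeneic library, against 2.84 CPM in the syngeneic library), where 10.5% of all genes tested were. Jchain, Eaf2 (4.3 CPM allogeneic and 17.8 CPM syngeneic) and Mzb1 (58.1 CPM allogeneic and 119.6 CPM syngeneic) were 2-fold lower, where 7.7% of all genes tested were. After thinning to 1000 UMIs none of these 3 reached 2-fold, at log2 ratios of -0.74 for Jchain, -0.38 for Eaf2 (interval -1.45 to 0.56) and -0.23 for Mzb1 (interval -0.48 to 0.02). The Mzb1 ratio of -1.04 was also under 2-fold with haemoglobin out of totals (-0.91), with the stricter filter on barcodes (-0.91) and without mixed barcodes (-0.95). With only barcodes at or above the lowest syngeneic total, the ratios were -3.53 for Jchain, -2.93 for Eaf2, -2.30 for Mzb1 and 0.99 for Prdm1. Thinning and this cut thus moved the 3 lower genes in opposite ways. The cut kept 33 of the 335 allogeneic B barcodes and 717 of the 1366 allogeneic T barcodes, so it also changed the mix of types. These sums over a library mix the levels within each type with the number of barcodes of that type, and germinal centre B and pDC barcodes, in which several of these genes are highest, made up smaller shares of the allogeneic library. Fewer cells of a type and less RNA per cell cannot be told apart in such sums.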

How the data were processed

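Lymph node immune cells of 2 groups were measured by droplet single-cell RNA sequencing, 1 library each, made per the labels' protocols with a Chromium 3′ v3 kit. What the authors deposited are raw UMI counts per gene and barcode, without normalisation. The submitters' processing notes list STAR, Cell Ranger 2.2.0, Seurat 2.3.4 and the build mm10, without role or order. The rule by which barcodes entered the lists is not stated.

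From these counts, barcodes were kept if they showed 200 genes or more and no more than 10% mitochondrial UMIs. A lineage (T, B, pDC, myeloid, erythroid) passed with at least 2 different markers detected. With several passing, the highest UMI sum named the barcode if it was at least 5 times the next, and otherwise the barcode was called mixed. B barcodes with at least 2 germinal centre markers formed their own class. No doublet caller was run, and possible doublets lie among the mixed barcodes. T receptor and immunoglobulin constant genes were not analysed here, and 1 plasma cell symbol of the list was matched under its older name only. The markers named here are Cd3d, Cd3e, Cd3g, Lat and Cd28 for T, Cd79a, Cd79b, Ms4a1, Pax5, Ebf1, Fcmr and Bank1 for B, and Bcl6, Mef2b, Rgs13, S1pr2, Gcsam, Fas, Mybl1 and Basp1 for germinal centre B. For pDC they are Siglech, Cox6a2, Klk1, Pacsin1, Smim5, Cd300c, Upb1, Ccr9 and Runx2. Some further B and germinal centre B markers used for gating are not reported here.

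CPM is a gene's UMIs per 1000000 UMIs of the same barcodes. Counts have exact Poisson intervals, shares exact Clopper-Pearson intervals and log2 ratios, allogeneic over syngeneic, exact conditional binomial intervals, all at 95%. A group at 0 was set to 3 UMIs for bounds. Genes were compared from a sum of 20 UMIs upwards, 2-fold was the size counted, and no test was run with 1 library per group. Thinning drew 1000 UMIs per barcode and left out shallower barcodes (25 allogeneic B and 55 allogeneic T barcodes). The ratio was tested on simulated data. All 9 genes are named. From other lists the 4 most abundant genes are named, and beyond these 5 chosen after their values were seen, namely Calr, Hsp90b1, Dnajc3, Eif2ak3 and Ppp1r15a. The genes and lists were chosen with earlier results of these data known. Python 3.11.15, NumPy 2.4.6, SciPy 1.17.1, pandas 2.3.3 and matplotlib 3.10.9 were used.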

Additional observations from a re-analysis of the deposited data

Results flagged for a closer look

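The allogeneic barcodes that the cell filter removed held 52 Jchain UMIs, a signal outside the barcodes compared. Of these, 40 lay in the barcode of 218 UMIs described above.

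The Xbp1 log2 ratio, allogeneic over syngeneic, had opposite signs in T barcodes (0.43) and B barcodes (-0.54), with neither counting interval including 0. The difference between the types was not tested, since each group has 1 library.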

How the results depend on the processing

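The Jchain log2 ratio over kept barcodes (-2.58) was lower in the allogeneic library under every alternative run. It was -2.20 with no filter on barcodes, -3.53 with only barcodes at or above the lowest syngeneic total, and -0.74 with each barcode thinned to 1000 UMIs, which weights barcodes equally. It was -1.50 without the syngeneic barcode with most Jchain and -3.53 without the allogeneic one, both chosen after seeing the data, as was leaving out mixed barcodes (-2.50). The share of Jchain in pDC barcodes was 0% after thinning, of 412 syngeneic UMIs. Herpud1 over kept barcodes (0.15) turned to -0.32 with only barcodes at or above the lowest syngeneic total, while among B barcodes it was 0.68 there. The causes were not tested. Median-of-ratios scaling shifted log2 ratios by -0.12 among B and -0.15 among T barcodes, and leaving haemoglobin out of totals shifted them by 0.14 over kept barcodes. This second choice put 20 of 49 ER folding and export genes higher over kept barcodes, where 8 were otherwise. The counts of genes higher in the allogeneic library, 4 of 8 over kept and 2 of 6 among B barcodes, stayed within 1.5 times under the alternatives run. Beside the kept Jchain ratio, 105 ratios of single genes could change under 11 alternatives, of which 96 stayed within the main counting interval, 8 moved beyond it in the same direction and 1 is the reversal above. Gates were redone on thinned counts, and the syngeneic barcode with most Jchain then counted as B. Syngeneic B barcodes also rose from 958 to 1220, while germinal centre B barcodes fell from 162 to 72. The B ratio of Jchain was then -3.01, and the part of each change in it was not tested. No paired analysis was possible because each group has 1 library. Counts in 10 allogeneic germinal centre B barcodes limit every value of that class.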
